A study of Rattus rattus with 18 samples.

Results

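The miR-30 family was followed on the rat brain miRNA arrays through 8 mature miRNAs, the 5p arms rno-miR-30a-5p, rno-miR-30b-5p, rno-miR-30c-5p, rno-miR-30d-5p and rno-miR-30e-5p and the 3p arms rno-miR-30a-3p, rno-miR-30d-3p and rno-miR-30e-3p. The members were taken by name, as listed probes, and all 8 were found among the 761 rat miRNAs on the array. Tissue came from 9 different Sprague-Dawley rats, 3 sham-operated, 3 subjected to transient middle cerebral artery occlusion (tMCAO) and 3 labelled remote limb postconditioning (PostC). Each rat gave 1 array of the core and 1 array of the peri region, so that 18 single-colour arrays fell into 6 groups of 3 rats. tMCAO is a stroke model in which the blood flow of that artery is blocked for a time and then restored, and the sham-operated rats served as the control of both other conditions. The labels do not say whether the PostC rats also had an occlusion, and the age of the rats, and which of the study's times of sacrifice applies to the array rats, are not given in the sources used here. The labels name temporo-parietal cortex for core and striatum for peri, the reverse of the places the study's methods give, so the regions are called core and peri here without a tissue name. The labels also give the species as Rattus rattus, whereas the series title and the probe names give Rattus norvegicus.

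A miRNA is cut from a hairpin precursor whose 2 arms can each give a mature strand, named 5p and 3p. One strand is usually kept in the silencing complex as the guide, and the other is mostly degraded. The seed, bases 2 to 8 of the guide, sets most of the pairing with target mRNAs, so miRNAs with the same seed share many targets. The miR-30 genes lie in neighbouring pairs, miR-30a with miR-30c-2, miR-30b with miR-30d and miR-30e with miR-30c-1. The 5p arms are abundant in brain, and known targets of miR-30a-5p include Becn1, a starter of autophagy, and Bdnf, a neuronal growth factor. The array files hold the target sequence of every probe, and these sequences are shown because they tell how well the probes can be told apart. Capitals mark the seed.
rno-miR-30a-5p: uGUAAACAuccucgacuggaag
rno-miR-30d-5p: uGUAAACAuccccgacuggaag
rno-miR-30e-5p: uGUAAACAuccuugacuggaag
rno-miR-30b-5p: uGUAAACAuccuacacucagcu
rno-miR-30c-5p: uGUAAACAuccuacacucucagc
rno-miR-384-5p: uGUAAACAauuccuaggcaaugu
rno-miR-30a-3p: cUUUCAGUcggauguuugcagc
rno-miR-30e-3p: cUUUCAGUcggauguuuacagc
rno-miR-30d-3p: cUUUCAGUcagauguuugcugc

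The 5 members of the 5p arm shared the seed GUAAACA, which 1 other miRNA on the array, rno-miR-384-5p, also carried. The 3 members of the 3p arm shared the seed UUUCAGU, which no other miRNA on the array carried. With positions counted from 1 at the 5′ end, miR-30a-5p differed from miR-30e-5p by C13U alone and from miR-30d-5p by U12C alone. Between miR-30d-5p and miR-30e-5p the differences were C12U and C13U, and miR-30b-5p and miR-30c-5p were 3 edits apart. On the other arm, miR-30a-3p differed from miR-30e-3p by G18A and from miR-30d-3p by G10A and A20U. How much of a probe's signal came from a relative that differs by 1 or 2 bases was not tested, so the values of miR-30a-5p, miR-30d-5p and miR-30e-5p may share signal.

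All 5 of the 5p arms were detected on 18 of 18 arrays, where detected means that the median of a probe's 4 spots lay above the limit set by the array's empty spots. Of the 3p arms, miR-30e-3p was detected on 14 arrays, miR-30a-3p on 13 and miR-30d-3p on 3. All 8 members were detected on at least 3 arrays, which was the condition for testing, and so belonged to the 532 miRNAs tested. The arrays detected between 188 and 605 miRNAs each, and the PostC core arrays were the least alike, with a mean correlation with the other arrays of their group of 0.85 to 0.90, against 0.89 to 0.98 in the other 5 groups. Levels are given below as normalized log2 intensities, on which a difference of 1 is a doubling, and the number of arrays limits their precision. Levels are compared for the same probe only, since the brightness of different probes is not comparable. The replicate is the rat, and adjusted p-values are from limma with Benjamini-Hochberg adjustment over the 532 miRNAs at 0.05.

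In core, miR-30e-5p was lower after tMCAO than in sham-operated rats. Its log2 level was 12.95, 13.72 and 12.68 in the 3 sham rats and 10.93, 10.85 and 11.97 in the 3 tMCAO rats, so every tMCAO value lay below every sham value. The mean fell from 13.12 ± 0.54 to 11.25 ± 0.62 (SD, n = 3), a log2 difference of -1.87 ± 0.39 (SE), or 3.65-fold lower, with a 95% interval of -2.74 to -0.997 and an adjusted p of 0.0353. It was the only member of the family past the threshold, in a comparison that called 18 of the 532 miRNAs (3.38%), 9 of them lower. In the deposited normalized intensities it was at 8262, 12329 and 6943 in the sham rats and 3024, 1917 and 4064 in the tMCAO rats, without overlap, but there the call was lost (adjusted p = 0.0567). It was also lost with median scaling (0.0588), with the rat number as a replicate block (0.0889) and by the methods' t-test on the same values (0.122), which called 3 miRNAs. Of the 4 spots for miR-30e-5p on the core array of tMCAO rat 1, 1 read 457 units and the other 3 read 2466 to 3151. With the median in place of the mean of the spots, chosen after seeing the data, the difference was -1.66 ± 0.38 and the adjusted p 0.0522, so that the call was lost. So it was without sham rat 1 (adjusted p = 0.0928), sham rat 2 (0.109), sham rat 3 (0.0665), tMCAO rat 1 (0.138) or tMCAO rat 2 (0.152), while the difference stayed between -2.23 and -1.56 under all 24 alternatives. miR-30e-5p and miR-30a-5p are among the miRNAs that the study selected on these same arrays, so these values are not independent evidence for that selection. The study's text gives no direction in brain for either. In plasma, a different kind of sample read by PCR, it reported miR-30a as raised after tMCAO.

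The other 5p arms lay between this fall and no difference. miR-30a-5p, a single base away from miR-30e-5p, had log2 levels of 13.12, 13.83 and 12.74 in the sham core and 11.89, 11.08 and 12.31 in the tMCAO core, again without overlap. Its difference was -1.47 ± 0.45 (SE; 95% interval -2.48 to -0.46), or 2.77-fold, but the adjusted p was 0.110. For miR-30b-5p the levels were 13.61, 14.46 and 13.09 in sham and 13.29, 12.41 and 13.27 in tMCAO rats, which overlapped, with a difference of -0.73 ± 0.36 and an adjusted p of 0.262. For miR-30c-5p they were 14.29, 14.50 and 14.07 against 14.10, 13.49 and 13.89, which overlapped narrowly, with a difference of -0.46 ± 0.20 and an adjusted p of 0.216. miR-30d-5p, a single base away from miR-30a-5p on the other side, had 13.18, 13.42 and 12.77 in sham and 13.59, 13.05 and 12.75 in tMCAO rats, a difference of 0.0050 ± 0.28 whose 95% interval ran from -0.61 to 0.62. Thus 4 of the 5 lay below 0, with a median of -0.73, beside a median of -0.055 over all 532 miRNAs, of which 53.4% lay below 0. The groups did not overlap for 4 of the 8 members, all lower after tMCAO (miR-30a-5p, miR-30e-5p, miR-30e-3p and miR-30d-3p), and the same held for 24.2% of all tested miRNAs. For miR-30d-3p this orders values at background, since it was detected on 1 of these 6 arrays.

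**Figure D1:**
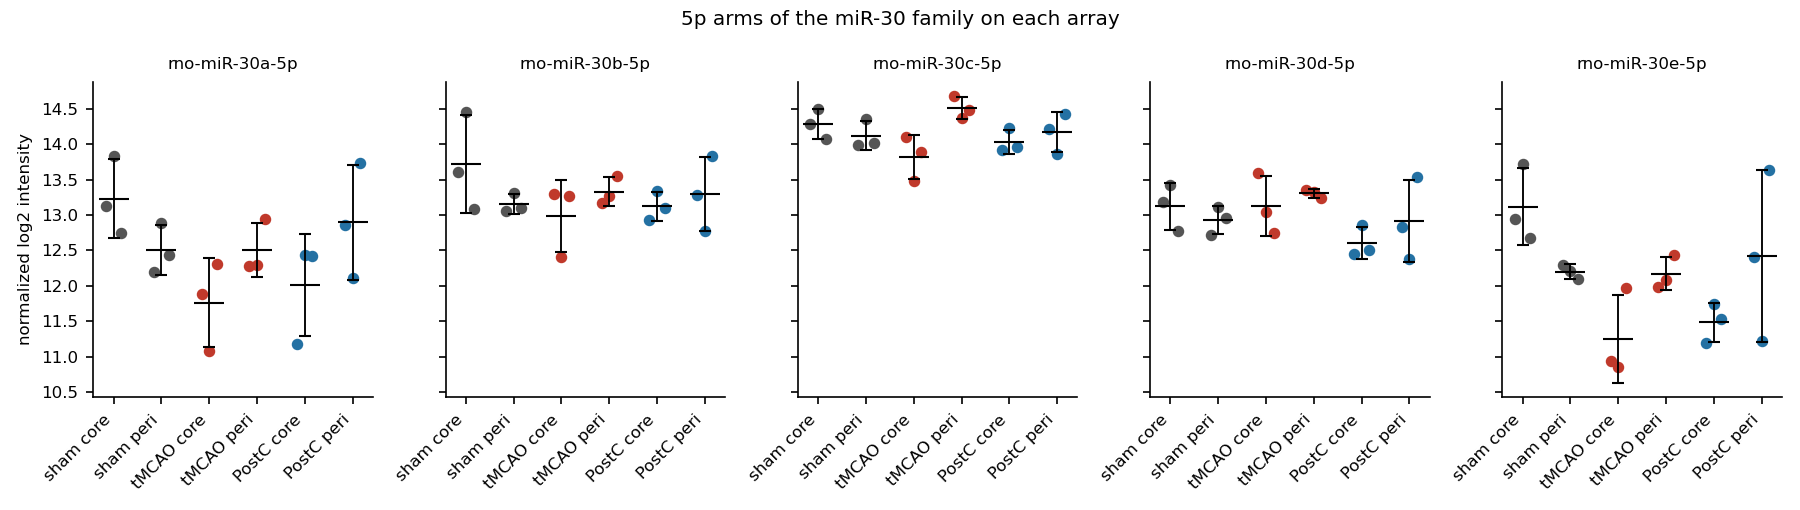
Normalized log2 intensity (y axis) of the 5 members of the 5p arm in the 6 groups (x axis), with 1 point per rat and a black bar with whiskers for the mean and SD of 3 rats. In core, the 3 tMCAO points of rno-miR-30e-5p (10.85 to 11.97) and of rno-miR-30a-5p (11.08 to 12.31) sit below all sham points, whereas those of rno-miR-30d-5p (12.75 to 13.59) lie among them.

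The base composition of the probes and the levels of miRNAs known from several cell types were read beside the core changes after tMCAO. Over the 532 miRNAs, the change in core after tMCAO correlated with the GC content of the target sequence (Spearman's rho 0.39, across miRNAs, which are not independent replicates). The GC content was 40.9% for miR-30e-5p and miR-30b-5p, 43.5% for miR-30c-5p, 45.5% for miR-30a-5p and 50% for miR-30d-5p, beside a median of 50% over the miRNAs tested. After a linear trend on GC content was taken out of each array, miR-30e-5p remained past the threshold, at -1.56 and an adjusted p of 0.0398, and miR-30a-5p was at -1.32 with an adjusted p of 0.0991. Marker lists are given as the log2 of the summed intensities of their probes, a sum that undetected probes enter and the brightest probes carry. For 6 miRNAs of leukocytes it was 12.89 to 13.59 in the tMCAO core and 11.69 to 11.98 in the sham core, and 2 of the 5 that could be tested rose, each with an adjusted p of 0.0318. miR-150-5p, detected on 18 arrays, rose by 1.55 on the log2 scale, and miR-155-5p, detected on 2 of 3 tMCAO core arrays and on no sham core array, was at least 2.08-fold higher. Of these 6 markers, miR-142-3p and miR-142-5p did not follow, being detected on at least 1 sham core array each and on no tMCAO core array. For 8 neuronal miRNAs the log2 sum was 16.30 to 16.52 in the tMCAO core and 16.67 to 16.75 in the sham core, all 8 being detected on every array of both groups, and none of the 8 passed the test. The list split, with miR-124-3p, miR-128-3p, miR-132-3p and miR-138-5p at -0.21 to 0.41 and miR-9a-5p, miR-137-3p, miR-153-3p and miR-218a-5p at -2.89 to -1.89. For the oligodendrocyte list (3 miRNAs) the log2 sum was 11.64 to 12.30 after tMCAO and 12.06 to 13.99 in sham rats, with miR-219a-5p undetected on the tMCAO core arrays. This list also split, with miR-338-3p at -3.32 and miR-219a-2-3p, detected on 18 arrays, at 0.37. For red blood cells (3, of which miR-144-3p was not detected on any array) the log2 sum was 11.53 to 12.03 and 11.24 to 12.06, and for endothelium and smooth muscle (4) 13.79 to 14.20 and 14.15 to 14.39, with miR-126a-5p undetected on the tMCAO core arrays. The last list split too, with miR-126a-3p at -0.99 and miR-143-3p and miR-145-5p at 0.41 each, and each of these was detected on 18 arrays. None of these 3 lists had a member past the threshold. The part of these measures in the miR-30 changes was not tested, and in bulk tissue fewer cells of a type and less RNA per cell cannot be told apart.

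**Figure D2:**
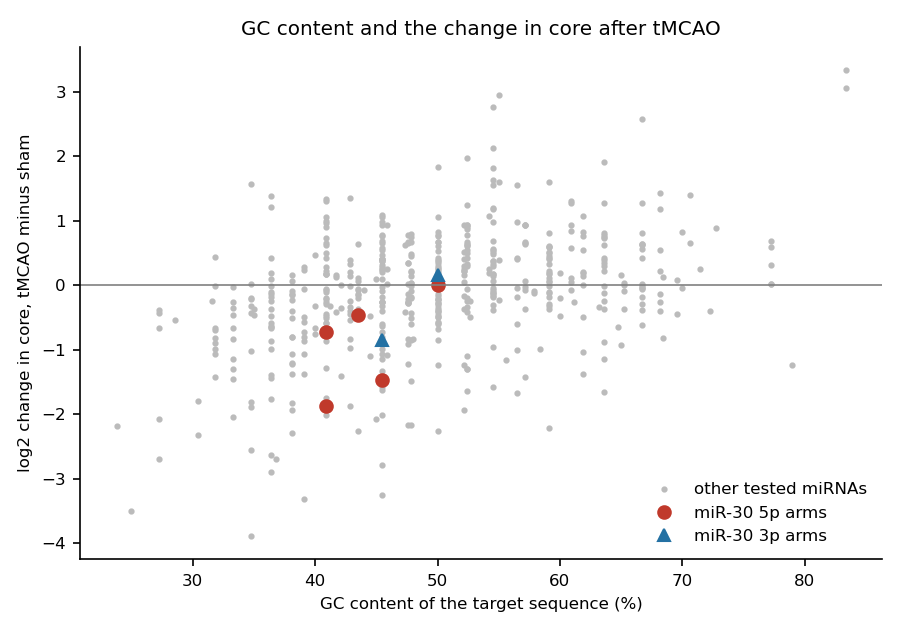
Change in core after tMCAO (log2, tMCAO minus sham; y axis) against the GC content of the target sequence (percent; x axis) for the 532 miRNAs tested, with the 5p arms of the miR-30 family as red circles, miR-30a-3p and miR-30e-3p as blue triangles and all other miRNAs as grey points (miR-30d-3p, near background, is not drawn). The changes rise with GC content (Spearman's rho 0.39), and rno-miR-30e-5p (-1.87 at 40.9%) and rno-miR-30a-5p (-1.47 at 45.5%) lie low among miRNAs of their own GC content.

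In peri, no member passed the threshold after tMCAO, and 3 of the 532 miRNAs did (0.564%), with 81 at an unadjusted p under 0.05 and no member among them. The methods' t-test called 0, median scaling called 128 with no member among them, and leaving out a rat gave between 0 and 36 calls. miR-30e-5p was at 12.30, 12.21 and 12.09 in sham and 11.99, 12.09 and 12.43 in tMCAO rats, a difference of -0.031 ± 0.47 with a 95% interval of -1.04 to 0.97. miR-30a-5p was at 12.19, 12.88 and 12.43 in sham and 12.28, 12.30 and 12.94 in tMCAO rats, a difference of 0.0031 ± 0.38 with an interval of -0.82 to 0.83. Both sets of values overlapped between the conditions. miR-30c-5p (0.40 ± 0.20, adjusted p = 0.368) and miR-30d-5p (0.38 ± 0.29, adjusted p = 0.547) had higher values in all 3 tMCAO rats than in any sham rat, as did 15.6% of all tested miRNAs. These differences in peri depended on the scaling. With each array scaled to 1 median, the median of all 532 miRNAs moved to -0.42 and the 5p arms were at -0.97 to -0.24, that is at -0.55 to 0.18 relative to that median. In the mean of both regions of each rat, 63 of the 532 miRNAs passed (11.8%) and no member did (the same 0 by the methods' t-test). miR-30e-5p was nearest, at -0.95 ± 0.32 with an adjusted p of 0.0708, and it passed without tMCAO rat 3 (0.0306) and without PostC rat 3 (0.0383).

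In the PostC core the means of 5 of 5 of the 5p arms were below those of sham, and none passed the threshold. Over all 532 miRNAs, 45.5% lay below 0 in this comparison, with a median of 0.062. miR-30e-5p was at 11.19, 11.74 and 11.53, below all 3 sham values, a difference from sham of -1.64 ± 0.39 (95% interval -2.51 to -0.77) with an adjusted p of 0.0888. miR-30a-5p was at 11.18, 12.44 and 12.43, also below all sham values, with a difference of -1.22 ± 0.45 and an adjusted p of 0.230. The differences of the other 5p arms were -0.60 for miR-30b-5p, -0.25 for miR-30c-5p and -0.52 for miR-30d-5p, with adjusted p-values of 0.355 to 0.537. limma called 0 of the 532 miRNAs in this comparison (0%), as did the methods' t-test, and 90 had an unadjusted p under 0.05, miR-30a-5p and miR-30e-5p among them. The groups did not overlap, with PostC lower, for 2 of the 8 members and for 11.1% of all tested miRNAs. With quantile normalization miR-30e-5p passed in this comparison, at -1.79 and an adjusted p of 0.0308, as did 5 other miRNAs. The count over all miRNAs was 32 with the rat as a random block, miR-30e-5p among them, and up to 8 when a rat was left out (without PostC rat 2). tMCAO and PostC were compared with the same sham rats, so their changes are set side by side without a measure of likeness. In the PostC core and sham core the log2 marker sums were 12.54 to 13.03 and 11.69 to 11.98 for leukocytes. They were 10.73 to 11.98 and 12.06 to 13.99 for oligodendrocytes, and 10.56 to 10.81 and 11.24 to 12.06 for red blood cells. For neurons they were 16.43 to 16.65 and 16.67 to 16.75, and for endothelium and smooth muscle 13.89 to 14.14 and 14.15 to 14.39. The changes correlated with GC content (Spearman's rho 0.33). The part of these measures was not tested.

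The direct comparison of PostC with tMCAO called no member. In core it called 12 of 532 miRNAs (2.26%), and miR-30e-5p differed by 0.23 ± 0.39, miR-30a-5p by 0.25 ± 0.45 and miR-30d-5p, in the opposite direction, by -0.52 ± 0.28 (adjusted p = 0.509). In the rat means it called 30 miRNAs (5.64%), and the member with the lowest p was again miR-30d-5p, at -0.46 ± 0.19 with an adjusted p of 0.232. In peri it called 0 (0%), with 31 at an unadjusted p under 0.05 and no member among them, and without PostC rat 3 it called 59, again with no member. PostC against sham called 0 in peri (0%; 14 at an unadjusted p under 0.05, no member among them) and 1 in the rat means (0.188%), which was no member. The methods' t-test gave 0 calls in these last 3 comparisons. In peri the PostC rats spread widely: miR-30e-5p was at 12.40, 11.21 and 13.64, an SD of 1.21 beside 0.10 in the sham peri, and miR-30a-5p at 12.86, 12.11 and 13.73. Rat 3 was the highest of the 3 and rat 2 the lowest for each of the 5 members of the 5p arm.

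**Figure D3:**
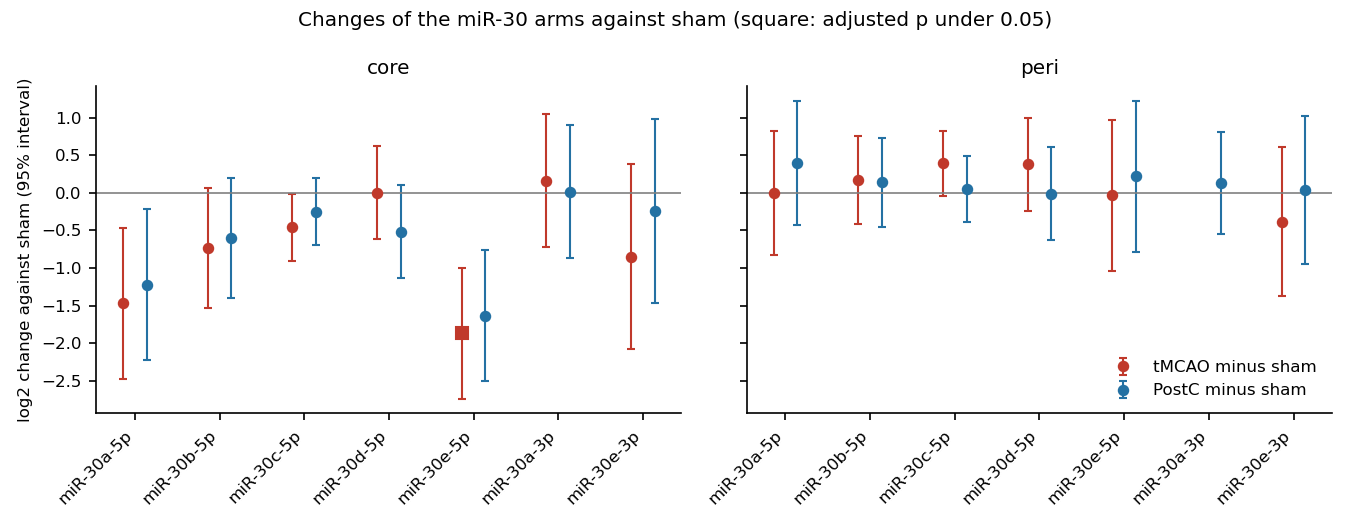
Log2 change against sham (y axis) of 7 members in core (left) and peri (right), tMCAO in red and PostC in blue, with 95% intervals from limma and a square where the adjusted p is under 0.05. Only rno-miR-30e-5p in core after tMCAO (-1.87) has a square; rno-miR-30d-3p, and rno-miR-30a-3p in peri after tMCAO, are left out because no fold is given for them.

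Core and peri of the same rat were then compared, since a shift that affects a whole rat cancels there. In all 3 sham rats miR-30e-5p had a higher value in core than in peri, with log2 differences of 0.65, 1.51 and 0.59, and in all 3 tMCAO rats a lower one, with -1.05, -1.24 and -0.46. miR-30a-5p followed the same order, with 0.93, 0.95 and 0.31 in sham and -0.39, -1.21 and -0.63 in tMCAO rats. So did miR-30c-5p, the most even of the 3, with 0.30, 0.14 and 0.056 in sham and -0.59, -0.89 and -0.60 in tMCAO rats. miR-30b-5p and miR-30d-5p had both signs within each condition. A difference above 0 in all 3 sham rats and below 0 in all 3 tMCAO rats was found for these 3 of the 8 members and for 36 of the 532 miRNAs tested (6.77%). Taken singly, 21.8% of the tested miRNAs were above 0 in all 3 sham rats, and 24.6% below 0 in all 3 tMCAO rats. In PostC rats miR-30e-5p was at -1.21, 0.52 and -2.12, and rat 2 was above 0 for each of the 5p arms. Log2 marker sums also differed by region. For leukocytes of tMCAO rats they were 12.89 to 13.59 in core and 11.76 to 12.20 in peri. For neurons they were 16.30 to 16.52 and 16.59 to 16.94. For red blood cells they were 11.24 to 12.06 and 10.35 to 10.97 in sham rats. In tMCAO rats these were 11.53 to 12.03 and 10.66 to 11.27. The other sums of sham and tMCAO rats overlapped between regions. The part of these sums was not tested.

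No member passed the threshold for these differences. Core against peri called 0 of 532 miRNAs in sham (0%; 29 at an unadjusted p under 0.05), 5 in tMCAO (0.94%) and 0 in PostC rats (0%; 52 at an unadjusted p under 0.05, miR-30a-5p among them); the methods' t-test called 0, 0 and 1. The 5 calls in tMCAO rats became 0 without any 1 of the sham or tMCAO rats or without PostC rat 1, 0 with the GC trend removed, 9 without PostC rat 3 and 10 in the deposited intensities. The member with the lowest p was miR-30c-5p in tMCAO rats, at -0.69 ± 0.20 with an adjusted p of 0.275. The test of whether the change in core differed from the change in peri gave -1.84 ± 0.62 for miR-30e-5p, -1.47 ± 0.51 for miR-30a-5p and -0.86 ± 0.28 for miR-30c-5p after tMCAO, each with an adjusted p of 0.425. The 95% intervals of these 3 members lay below 0 before adjustment, and all 3 had an unadjusted p under 0.05, as had 46 of the 532 miRNAs. This comparison called 0 miRNAs (0%), and the one for PostC also called 0 (0%; 56 at an unadjusted p under 0.05), with -1.85 ± 0.62 for miR-30e-5p and -1.62 ± 0.51 for miR-30a-5p, each with an adjusted p of 0.309. The methods' t-test called 0 in both. Without PostC rat 2, both passed there, at -2.58 and -2.22 with an adjusted p of 0.0305 each, and both also passed in core against peri of the PostC rats, at -1.66 and -1.49 (adjusted p 0.0411 and 0.0346). Those fits called 10 and 18 of the 532 miRNAs in place of 0. With median scaling miR-30c-5p was at -0.031 in sham and 0.072 in tMCAO rats, but the median of all miRNAs moved to -0.10 and 0.11, and relative to it miR-30c-5p was at 0.068 and -0.034. miR-30a-5p and miR-30e-5p kept their direction in sham and tMCAO rats under all alternatives. Under that scaling the difference in tMCAO rats shrank, however, from -0.74 to -0.011 for miR-30a-5p and from -0.92 to -0.19 ± 0.45 for miR-30e-5p, and in sham rats from 0.73 to 0.47 and from 0.92 to 0.64. Relative to the medians these differences were -0.12 and -0.30 in tMCAO rats and 0.57 and 0.74 in sham rats.

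**Figure D4:**
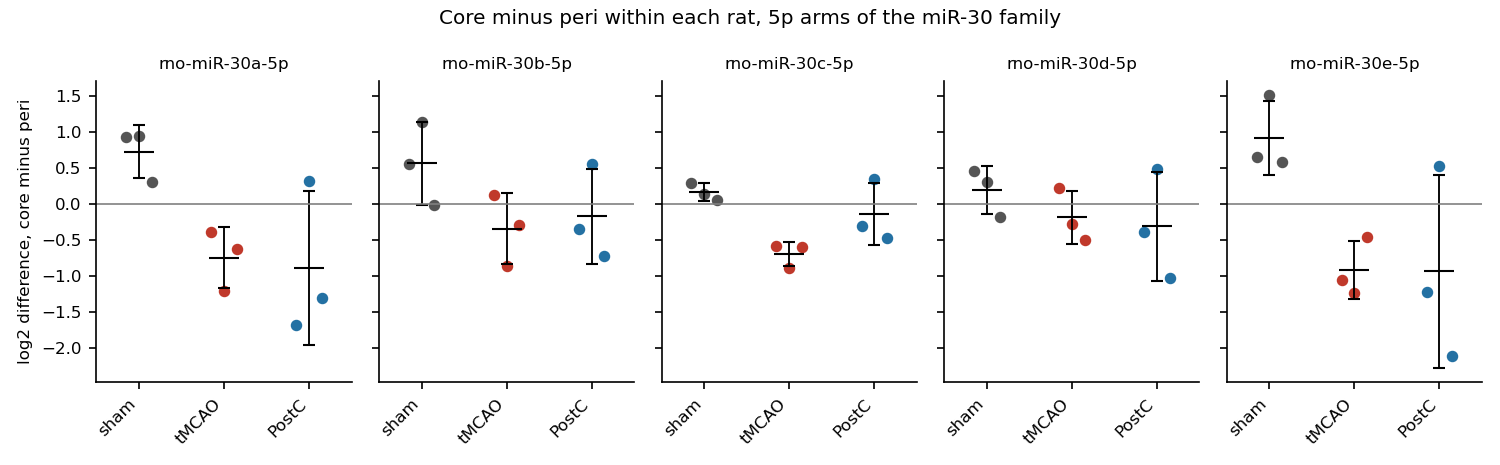
Log2 difference of core minus peri within each rat (y axis) for the 5 members of the 5p arm in sham, tMCAO and PostC rats (x axis), with 1 point per rat and a black bar with whiskers for the mean and SD of 3 rats. For rno-miR-30a-5p, rno-miR-30c-5p and rno-miR-30e-5p all sham points lie above 0 and all tMCAO points below it, and the PostC points fall on both sides.

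The 3p arms were read in the same groups, with no member past the threshold. miR-30e-3p was at 8.70, 9.98 and 9.21 in the sham core and 8.54, 8.14 and 8.67 in the tMCAO core, detected on all 6 arrays and without overlap, with a difference of -0.85 ± 0.55 and an adjusted p of 0.364. miR-30a-3p was at 8.05, 8.47 and 8.41 in the sham core and 8.16, 8.77 and 8.49 in the tMCAO core, also detected on all 6 arrays, with a difference of 0.16 ± 0.40 (95% interval -0.72 to 1.05). With median scaling this small difference changed sign, to -0.12. In peri, miR-30a-3p was detected on all 3 sham arrays and was not well above background on any tMCAO array, where the measured means were 8.08 and 7.94; the lower bound on the ratio was under 1, so no fold is given. The adjusted p of miR-30e-3p in peri after tMCAO, where it was detected on 1 of 3 arrays, was 0.699. miR-30d-3p was well above background on 1 of 3 arrays each in sham core, sham peri and PostC core, and on none of the tMCAO or PostC peri arrays. Its mean levels in the 6 groups ran from 6.28 to 6.52, and no fold is given for it.

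The 3p arms also varied between the PostC rats. miR-30e-3p was at 7.96, 9.27 and 9.94 in the PostC core, with rat 1 not well above background, and at 9.53, 9.56 and 7.83 in the PostC peri, with rat 3 not well above background. miR-30a-3p followed the same arrays, with 7.71, 8.41 and 8.86 in core and 8.38, 8.63 and 7.62 in peri. The peri array of PostC rat 3 thus had the highest values of the 5p arms and the lowest values of these 3p arms among the PostC peri arrays. That array and the core array of PostC rat 1 were among the 3 with the fewest miRNAs detected (188 and 198). Of the 3p arms, 0 had an unadjusted p under 0.05 in any of these comparisons, and none was called. Over all 532 miRNAs that share was 21.8% in core after tMCAO. It ran from 2.63% for PostC against sham in peri to 31.4% for tMCAO against sham in the rat means.

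**Figure D5:**
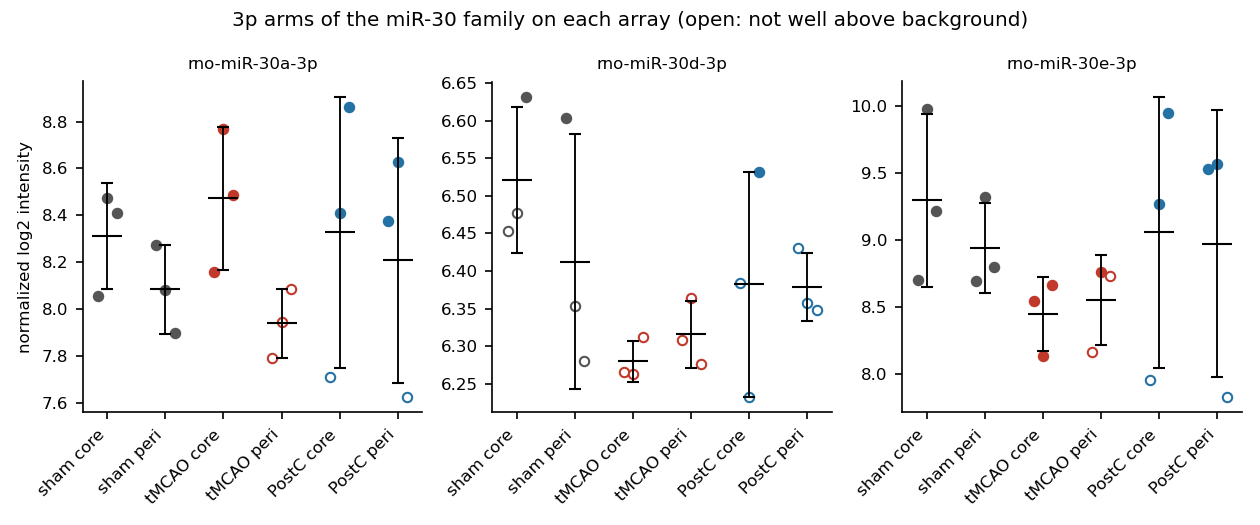
Normalized log2 intensity (y axis, a separate scale per panel) of the 3 members of the 3p arm in the 6 groups (x axis), with 1 point per rat, filled where the probe was well above background and open where it was not, and a black bar with whiskers for the mean and SD of 3 rats. rno-miR-30a-3p and rno-miR-30e-3p are filled in all sham rats and scatter widely in the PostC rats, and most points of rno-miR-30d-3p are open.

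Whether the arms of a hairpin changed unequally was tested on the log2 difference 5p minus 3p of each array, over the 156 hairpins with both arms tested. For miR-30a this difference was 5.07, 5.36 and 4.33 in the sham core, 3.73, 2.31 and 3.83 in the tMCAO core and 3.47, 4.03 and 3.56 in the PostC core. All values of the tMCAO rats lay below all sham values, as they did for 23.1% of the 156 hairpins. On the core array of PostC rat 1 neither 3p arm was well above background, so the first PostC value of both hairpins is only a lower bound, and no overlap is read for PostC. The change of the 5p arm minus that of the 3p arm was -1.63 ± 0.46 after tMCAO (95% interval -2.66 to -0.61; adjusted p = 0.0544) and -1.24 ± 0.46 in PostC rats (adjusted p = 0.132). For miR-30e the difference was 4.25, 3.75 and 3.47 in the sham core, 2.39, 2.71 and 3.31 in the tMCAO core and 3.23, 2.47 and 1.58 in the PostC core, and the tMCAO values again did not overlap with sham. The changes were -1.02 ± 0.46 after tMCAO (adjusted p = 0.170) and -1.40 ± 0.46 in PostC rats (adjusted p = 0.102), and the changes of both hairpins in PostC rats rest in part on that bound. No miR-30 hairpin passed, in comparisons that called 12 of the 156 hairpins after tMCAO (7.69%), 2 in PostC rats (1.28%) and 4 for PostC against tMCAO (2.56%) in core. The methods' t-test called 0 in each. With the rat as a random block the 2 in PostC rats became 15 and the 4 became 7. When rats were left out they lay between 0 and 7 and between 1 and 6. An unadjusted p under 0.05 was found for 45 hairpins after tMCAO, miR-30a among them, and for 36 in PostC rats, miR-30a and miR-30e among them. The arm difference of miR-30a after tMCAO passed under 5 of 23 alternatives and ran from -2.84 to -1.14, with adjusted p-values of up to 0.262. It passed without sham rat 3 (adjusted p = 0.0476), without PostC rat 1 (0.0461), without PostC rat 3 (0.0461), with quantile normalization (0.0439) and with the rat as a random block (0.0444). Those fits called 12, 28, 25, 16 and 32 of the 156 hairpins, in that order, beside 12 in the main fit. The miR-30a arm difference was -2.84 with plain background subtraction (0.262) and -1.14 without tMCAO rat 2 (0.203).

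In peri the arm test called 0 of the 156 hairpins after tMCAO (0%), 0 in PostC rats (0%) and 0 for PostC against tMCAO (0%), by limma and by the methods' t-test. The count over all hairpins after tMCAO became 21 with median scaling and lay between 0 and 11 when rats were left out. An unadjusted p under 0.05 was found there for 22, 1 and 12 hairpins, with no miR-30 hairpin among them. The miR-30e arm difference was 3.60, 2.89 and 3.29 in the sham peri and 3.82, 3.33 and 3.70 in the tMCAO peri, a change of 0.35 ± 0.84. In the PostC peri it was 2.87, 1.65 and 5.81, and without rat 3 it passed against tMCAO, at -1.35 with an adjusted p of 0.0468, where 20 hairpins were called in place of 0. These values rest on a 3p arm that was well above background on 1 of 3 tMCAO peri and 2 of 3 PostC peri arrays. For miR-30d no arm difference is given, since its 3p arm was mostly not well above background.

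Across the 6 groups, the 5p arms kept a partly shared order. The sham core was the highest group for miR-30a-5p (13.23), miR-30b-5p (13.72) and miR-30e-5p (13.12), and tMCAO peri was the highest for miR-30c-5p (14.52) and miR-30d-5p (13.31). The tMCAO core was the lowest group for miR-30a-5p, miR-30b-5p, miR-30c-5p and miR-30e-5p, and the PostC core for miR-30d-5p (12.61). For all 8 members neighbouring groups in this order overlapped, with 1 exception: miR-30e-5p in tMCAO peri (12.17 ± 0.23) lay above PostC core (11.48 ± 0.28) without overlap. How often such a gap occurs over all tested miRNAs was not counted, so nothing is read from it. The distance from the highest to the lowest group was 1.87 for miR-30e-5p, 1.47 for miR-30a-5p and 0.69 to 0.73 for the other 5p arms.

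The 5p arms also varied together to different degrees over the 18 arrays, which share rats and a joint normalization. The correlation was highest for miR-30a-5p with miR-30e-5p (r = 0.92) and lowest for miR-30d-5p with miR-30e-5p (0.41), among 10 pairs. miR-30a-5p with miR-30d-5p, equally close in sequence to miR-30a-5p as miR-30e-5p is, had r = 0.43. Pairs of a 5p arm with miR-30a-3p or miR-30e-3p had r between -0.55 and 0.37, and the arms of the same hairpin -0.16 for miR-30a and 0.14 for miR-30e. Of 136 other miRNAs detected on all 18 arrays, those whose values followed the mean of the 5p arms most closely were miR-29c-3p (r = 0.89), miR-126a-3p (0.86), miR-195-5p (0.86), miR-22-3p (0.83) and miR-99a-5p (0.83), beside a median r of -0.15. None of these 5 passed the test in core after tMCAO, where miR-29c-3p was at -2.63 with an adjusted p of 0.104.

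The remaining arms of the miR-30 hairpins and the miRNA that shares the 5p seed were read in the same fits. miR-384-5p was detected on 18 arrays and was at 11.91, 11.84 and 12.19 in the sham core and 11.48, 10.03 and 11.38 in the tMCAO core, below all sham values, with a difference of -1.02 ± 0.45 and an adjusted p of 0.225. In peri after tMCAO it was at -0.72 ± 0.51 (adjusted p = 0.522), and in the PostC core at -0.50 ± 0.45 (adjusted p = 0.575). miR-30b-3p, miR-30c-1-3p and miR-30c-2-3p, detected on 7, 5 and 9 arrays, had differences of -0.22, 0.17 and 0.25 in core after tMCAO, with adjusted p-values of 0.563 to 0.58. None of these 4 was called in core or peri against sham.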

How the data were processed

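The authors deposited, per array, the median pixel intensity of each of 3968 spots, with no background subtraction or normalization, and a table of background-subtracted, locally regressed intensities on a linear scale, used here as an alternative. Scanning and Array-Pro digitization were done by the service provider. The labels name a miRNeasy kit for RNA extraction and the study's methods name Trizol.

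The files give no local background, so normexp (offset 50) was run on all spots of an array. After log2, cyclic loess was fitted to the miRNA spots of the 18 arrays without the control spots, and the 4 spots of a probe were averaged. The loess assumes that rises and falls balance, so changes are relative to other miRNAs. A probe counted as detected, or well above background, if the median of its spots lay over 3 scaled median absolute deviations above that of the 612 empty spots. The limit lay between 49.1 and 566 units, so an arm near it can be detected on 1 array and missed on another at a like level. Of 761 miRNAs, the 532 with 3 or more such arrays entered the tests.

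limma 3.58.1 in R 4.3.3 was used (lmFit, eBayes with a variance trend, Benjamini-Hochberg at 0.05), with the rat as replicate and 3 conditions in 1 fit, for rat means, core, peri and core minus peri. Arms were compared over 156 hairpins. An exact permutation test of 3 rats against 3 cannot give a p under 0.1. The fits were tried on simulated independent normal values, which lack any signal shared between like probes. No result given here rests on that trial. The methods' t-test is Student's with equal variances, on the same values. Where a group was not well above background on any array, a bound was computed against the lowest detected signal of each array, and no fold is given where that bound is under 1.

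All 8 members were named, with the other arms of their hairpins, miR-384-5p and the 5 miRNAs most correlated with the 5p mean. The members and lists were chosen with earlier results of these data known. Alternatives were plain background subtraction, quantile normalization, median scaling, the deposited table with a floor of 50, a GC correction, other filters and detection limits, no variance trend, only the groups compared, the t-test, the rat number as a block, the rat as a random block, and leaving out each rat. The median of the spots and control spots in the loess were added after seeing the data. No genome was used here, so positions are not given. Figures were drawn with matplotlib 3.10.9 in Python 3.11.15.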

Additional observations from a re-analysis of the deposited data

How the results depend on the processing

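The fall of miR-30e-5p in core after tMCAO was below 0 under all 24 alternatives and past the threshold under 14. The count of members past it there went from 1 to 0 with median scaling (adjusted p of miR-30e-5p 0.0588), the deposited intensities (0.0567), the methods' t-test (0.122), the median of the 4 spots (0.0522) and the replicate block (0.0889), and lay between 0 and 1 when each rat was left out. The numbers name different rats in each condition and do not pair them: of 27 same-numbered pairs, 4 had correlated deviations over 0.1 (-0.45 to 0.44). The block changed no other count of members. In the rat means after tMCAO the count rose from 0 to 1 with quantile normalization and to 3 with median scaling (miR-30a-5p, miR-30e-5p and miR-30e-3p), among 124 and 130 calls over all miRNAs in place of 63. This count of members lay between 0 and 1 when rats were left out. In the PostC core it rose from 0 to 1 with quantile normalization and with the rat as a random block, among 6 and 32 calls over all miRNAs in place of 0. For core against peri in PostC rats, and for its difference from sham, it lay between 0 and 2 when rats were left out, among up to 18 and 10 calls in place of 0. The count of arm differences in core after tMCAO rose from 0 to 1 with quantile normalization and with the rat as a random block, among 16 and 32 hairpins called in place of 12. It lay between 0 and 1 when rats were left out, as did the count for PostC against tMCAO in peri. Changes of sign occurred in differences that had not passed the threshold. In core after tMCAO, miR-30d-5p turned to -0.24 with plain subtraction and to -0.0070 with the GC correction (-0.23 to 0.20 when rats were left out), and median scaling turned miR-30a-3p to -0.12. In peri after tMCAO, median scaling turned miR-30a-5p, miR-30b-5p, miR-30c-5p and miR-30d-5p to -0.89, -0.60, -0.24 and -0.44, which is -0.46, -0.18, 0.18 and -0.015 relative to the shifted median of all miRNAs (-0.42). There miR-30a-5p was at -0.081 and miR-30b-5p at -0.031 with plain subtraction, miR-30a-5p at -0.060 with the median of the spots and -0.10 with control spots in the loess, and miR-30e-5p at 0.00060 with quantile normalization and 0.028 with the GC correction (leaving out rats, -0.21 to 0.19 and -0.16 to 0.060). In the PostC core, miR-30a-3p turned to -0.24 with quantile normalization, -0.18 with median scaling and -0.44 in the deposited intensities (-0.25 to 0.32 when rats were left out), and miR-30e-3p lay between -0.68 and 0.31 when rats were left out. Counts of calls over all miRNAs moved more. In core after tMCAO the 18 calls became 3 with the methods' t-test and with the replicate block and 46 with the rat as a random block (0 to 27 when rats were left out), and in peri the 3 became 128 with median scaling (0 to 36). In the rat means the 63 calls became 21 among miRNAs detected on all 18 arrays and 130 with median scaling (8 to 96). For PostC against tMCAO, core had between 0 and 30 calls (3 to 21 when rats were left out), the rat means between 3 and 38 (9 to 46) and peri 0 (59 without PostC rat 3, otherwise 0), and the arm differences in core after tMCAO had between 0 and 32 (0 to 28). In the other comparisons 129 of 1941 values changed sign, in 52 of 82 results. miR-30d-3p, near background throughout, is not followed here. The cause of these changes was not tested. Signal over background limits the 3p arms: with a limit from the dimmest spots, miR-30a-3p and miR-30e-3p were detected on 18 arrays in place of 13 and 14.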
